A study of Mus musculus with 10 samples.

Results

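Leptin, the other adipokines and the lipid-handling genes of the adipocyte were followed in skin wounds of mice that cannot respond to leptin. The genes were Lep, Lepr, Adipoq, Retn, Cfd, Plin1, Cidec, Cd36, Fabp4 and Pparg, 10 in all. They were taken by symbol from the array annotation, with the brightest feature that carries 1 gene where a gene has several. Of the 10, 9 had such a feature and all 9 passed the level filter, among 17364 genes tested of 30142 with a feature. Cfd, which encodes adipsin, was not analysed here.

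The 5 miR-132 wounds came from male db/db mice [BKS(D)-Leprdb/JOrlRj] whose 4 mm punch wounds were injected at 4 points of the edge with 0.5 nmol of a miR-132 mimic. The 5 control wounds came from other male db/db mice injected in the same way with a control mimic. All mice were 11 weeks old when single caging began, about a week before wounding, had 2 wounds on the back through the panniculus carnosus, and gave wound-edge biopsies 6 days after injury. Both groups therefore carry the leptin receptor mutation, and no mouse with a working receptor was analysed here. RNA was labelled from 150 ng and read on Affymetrix Clariom D arrays, 1 array a sample and 10 in all. The labels do not say if both wounds of a mouse were pooled.

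White adipocytes store triglyceride in a single large lipid droplet and secrete hormones, the adipokines. Leptin, made in proportion to fat stores, acts through the receptor encoded by Lepr, and the db mutation changes the splicing of the long receptor form so that its intracellular part is cut short. Mouse skin holds a layer of white fat under the dermis and above the panniculus carnosus muscle. In bulk tissue, fewer cells of a type and less RNA per cell cannot be told apart. A microRNA pairs through its seed, bases 2 to 8 of the mature strand, with messenger RNAs that it lowers. The mature strands of mouse miR-132 are shown because the mimic copies one of them, with the seed in capitals. They are from RefSeq on GRCm38.p6, and the labels do not name the arm that the mimic carries.
mmu-miR-132-3p, chr11:75173723-75173744, plus strand: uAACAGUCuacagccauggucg
mmu-miR-132-5p, chr11:75173686-75173707, plus strand: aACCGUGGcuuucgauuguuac

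The adipokine genes spread more widely across single wounds than most genes tested, and no adipocyte gene passed the test for a difference between miR-132 and control. Signal is given on the log2 scale throughout, so that 1 unit is a doubling. Across the 10 wounds Retn spanned 7.76 units, Lep 5.95, Cidec 4.45 and Adipoq 4.22, whereas the median gene tested spanned 0.72. Only 0.0461% of the genes tested spanned at least as much as Retn and 0.167% as much as Lep. Lepr was at the other end with a span of 0.51, which 70.1% of the genes tested equalled or exceeded. The miR-132 wound of replicate 1 and the control wound of replicate 5 were the 2 highest for 8 of the 9 genes, all but Lepr, where 2.15% of all genes tested had these 2 arrays on top. The miR-132 wound of replicate 3 and the control wound of replicate 4 were the 2 lowest for 5 of the 9, against 3.47% of all genes tested. These arrays were picked after the values of these genes were seen, and the genes varied together, so the counts are a description only.

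**Figure D1:**
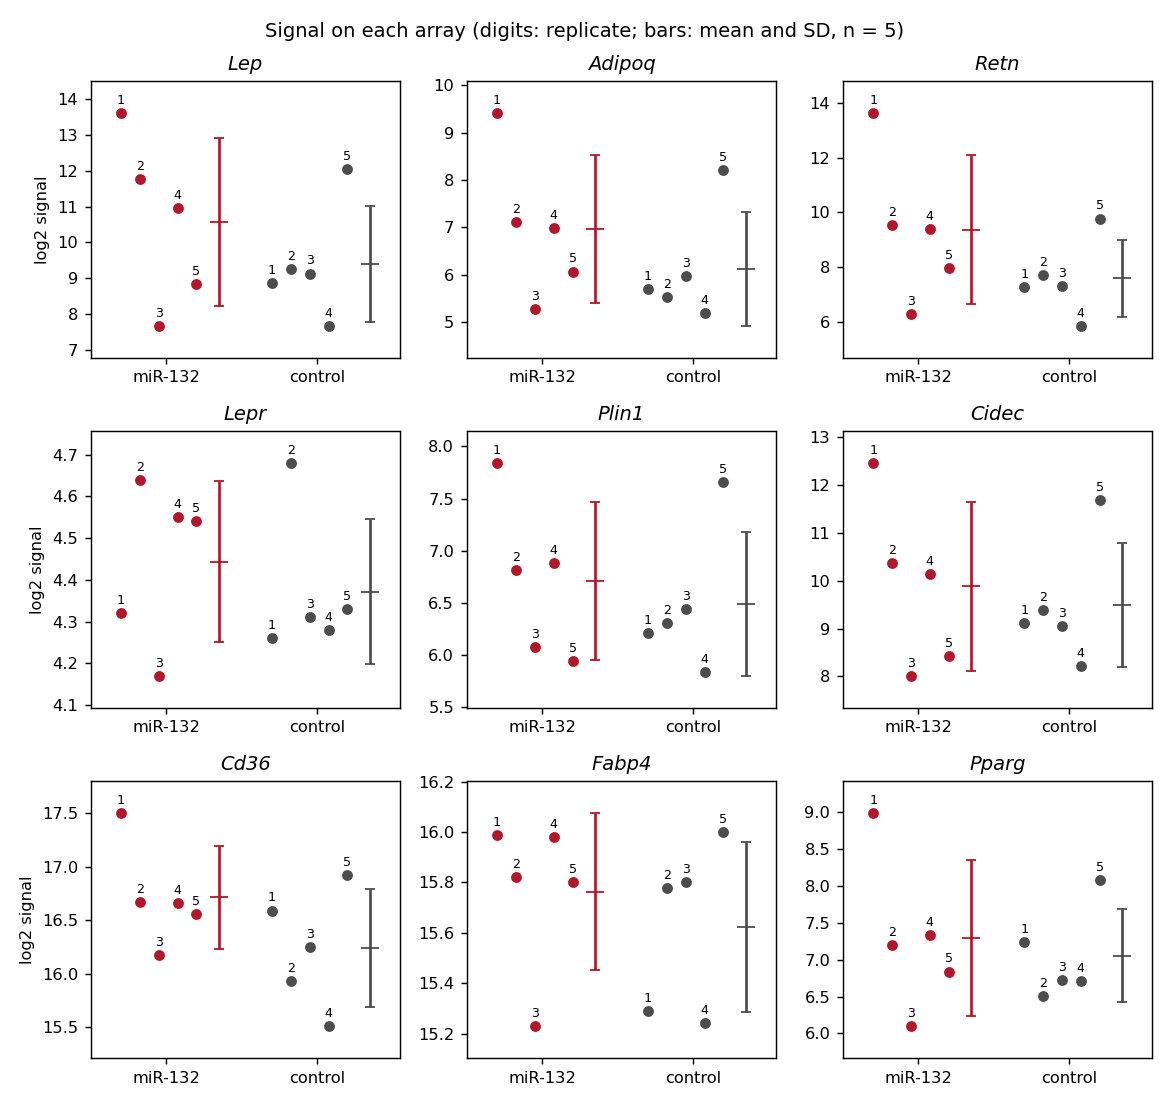
Log2 signal (vertical axis, its range set for each gene) of the 9 measured genes on the 5 miR-132 arrays (left, red) and the 5 control arrays (right, grey), with the replicate number above each point and the mean and SD of each group as bars. The miR-132 wound of replicate 1 and the control wound of replicate 5 stand highest for every gene except Lepr, and the groups overlap for all 9.

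Of the adipokine genes, Lep, which encodes leptin, measured 13.62, 11.76, 7.67, 10.96 and 8.84 on miR-132 replicates 1 to 5, against 8.86, 9.26, 9.13, 7.67 and 12.05 on control replicates 1 to 5. The lowest wound of each group had the same value, and 3 of 5 miR-132 wounds lay above the control mean. The group means were 10.57 ± 2.36 with miR-132 and 9.39 ± 1.61 in control (SD, n = 5 each). The difference was 1.18 ± 1.16 (moderated SE), with limma's adjusted p at 0.798. It was 0.41 without miR-132 replicate 1 and 1.90 without miR-132 replicate 3. Leptin signal differed 61.8-fold between the highest and the lowest of the 10 wounds, and 2.26-fold between the group means. Such a range is never smaller than a difference of means, so these 2 values are not a test of one against the other.

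Adipoq encodes adiponectin, an insulin-sensitising hormone made almost only by adipocytes. It measured 9.42, 7.11, 5.27, 6.98 and 6.07 with miR-132, against 5.71, 5.53, 5.98, 5.20 and 8.22 in control. All wounds stood above the level filter of 4.17, the median of the means of all features. Control replicate 5 stood well above the other controls, and miR-132 replicate 1 above every other wound. The means were 6.97 ± 1.56 and 6.13 ± 1.20 (SD, n = 5 each, miR-132 and then control), with a difference of 0.84 ± 0.80 (SE) and limma's adjusted p at 0.791. It was 0.23 without miR-132 replicate 1 and 1.36 without control replicate 5.

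Retn encodes resistin, which in mice is made by adipocytes and opposes insulin action. It measured 13.63, 9.53, 6.28, 9.40 and 7.99 with miR-132, against 7.28, 7.73, 7.32, 5.87 and 9.78 in control. It had the widest span of the 9 genes, and 4 of 5 miR-132 wounds lay above the control mean. The means were 9.37 ± 2.72 with miR-132 and 7.60 ± 1.41 in control (SD, n = 5 each), and the difference of 1.77 ± 1.24 (SE) had an adjusted p of 0.722 in limma. The difference was 0.70 without miR-132 replicate 1 and 2.54 without miR-132 replicate 3.

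The 250 bases before the start of the adipokine genes are shown because Lep, Adipoq and Retn are the measured genes for secreted factors and each has 1 RefSeq start. Sequences are from RefSeq on GRCm38.p6, 5′ to 3′ on the gene's strand. Capitals mark matches to TTGCNNAA, a C/EBP-type motif, on either strand, and to AGGTCA, a nuclear receptor half-site, on either strand.
Lep, chr6:29059971-29060220, plus strand: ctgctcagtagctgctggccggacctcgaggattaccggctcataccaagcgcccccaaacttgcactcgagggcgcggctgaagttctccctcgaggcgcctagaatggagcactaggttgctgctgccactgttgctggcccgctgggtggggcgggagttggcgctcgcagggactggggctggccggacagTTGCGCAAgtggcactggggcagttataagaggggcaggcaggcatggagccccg
Adipoq, chr16:23146286-23146535, plus strand: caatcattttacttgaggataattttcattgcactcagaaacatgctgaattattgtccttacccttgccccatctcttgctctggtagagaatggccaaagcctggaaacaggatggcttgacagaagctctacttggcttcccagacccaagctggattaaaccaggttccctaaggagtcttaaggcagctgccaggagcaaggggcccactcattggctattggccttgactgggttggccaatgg
Retn, chr8:3655520-3655769, plus strand: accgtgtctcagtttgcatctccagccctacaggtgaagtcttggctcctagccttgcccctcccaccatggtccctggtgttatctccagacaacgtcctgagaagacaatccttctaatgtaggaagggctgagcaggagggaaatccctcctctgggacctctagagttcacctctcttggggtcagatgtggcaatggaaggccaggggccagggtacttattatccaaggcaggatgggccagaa
Lep holds TTGCGCAA 55 bases before its start, a match on both strands, and the Adipoq and Retn windows hold neither motif. Of the 9 measured genes 8 had a window, Fabp4 being the exception. Of these 8, 4 hold a C/EBP-type match in at least 1 window (Lep, Plin1, Cidec and Pparg), against 10.8% of all genes. Some genes have several windows, and by window the count was 4 of 12, against 9.56% of all windows. Windows of Cd36 and Pparg hold a half-site, 2 of 8 genes against 15.8% of all genes, and 3 of 12 windows against 14% of all windows. A match is a string of letters in these windows only.

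The leptin receptor gene Lepr measured 4.32, 4.64, 4.17, 4.55 and 4.54 with miR-132, against 4.26, 4.68, 4.31, 4.28 and 4.33 in control. These values lie at or little above the level filter, and the feature's mean was at percentile 56 of all features. The feature does not tell the receptor's splice forms apart here, so the mutant long form was not measured on its own. The means were 4.44 ± 0.19 with miR-132 and 4.37 ± 0.17 in control (SD, n = 5 each), a difference of 0.07 ± 0.11 (SE, limma's adjusted p of 0.885). It was 0.023 when miR-132 replicate 2 was left out and 0.15 when control replicate 2 was. Leprot, a membrane protein gene named for its overlap with the leptin receptor gene, averaged 8.62 ± 0.35 with miR-132 and 8.60 ± 0.34 in control (SD, n = 5 each).

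Among the droplet genes, Plin1 encodes perilipin, which coats the droplet and restrains lipolysis. Plin1 measured 7.84, 6.82, 6.08, 6.88 and 5.94 with miR-132, against 6.21, 6.31, 6.44, 5.84 and 7.66 in control. Cidec encodes a protein that fuses small droplets into large ones. Cidec measured 12.46, 10.36, 8.01, 10.15 and 8.43 with miR-132, against 9.11, 9.39, 9.05, 8.22 and 11.68 in control. For both, the miR-132 wounds of replicates 3 and 5 and the control wound of replicate 4 lay at the low end, and the control wound of replicate 5 came second of all. The differences were 0.22 ± 0.42 for Plin1 and 0.39 ± 0.89 for Cidec (SE, limma's adjusted p of 0.912 and 0.930). Both turned lower without miR-132 replicate 1, to -0.06 for Plin1 and -0.25 for Cidec.

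The uptake genes Cd36, a fatty acid receptor, and Fabp4, a cytosolic fatty acid carrier, are also expressed by macrophages and small-vessel endothelium. Cd36 measured 17.50, 16.67, 16.17, 16.66 and 16.56 with miR-132, against 16.59, 15.93, 16.25, 15.51 and 16.92 in control. Fabp4 measured 15.99, 15.82, 15.23, 15.98 and 15.80 with miR-132, against 15.29, 15.78, 15.80, 15.24 and 16.00 in control. Their spans were narrower than those of the adipokine genes, 1.99 for Cd36 and 0.77 for Fabp4, and the groups overlapped for both. Cd36 averaged 0.47 ± 0.30 higher with miR-132 (SE, limma's adjusted p of 0.691, the lowest of the 9 genes) and lay above the control mean in 4 of 5 miR-132 wounds. Fabp4 differed by 0.14 ± 0.19 (SE, adjusted p of 0.861). The Cd36 difference was 0.28 without miR-132 replicate 1, and that of Fabp4 was 0.0465 without control replicate 4 and 0.28 without miR-132 replicate 3.

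Pparg encodes the nuclear receptor that drives adipocyte differentiation and is also active in sebaceous cells and macrophages. It measured 8.99, 7.20, 6.10, 7.34 and 6.84 with miR-132, against 7.24, 6.51, 6.73, 6.71 and 8.08 in control. The difference was 0.24 ± 0.50 (SE, limma's adjusted p of 0.924), and it was -0.18 without miR-132 replicate 1. Its highest wounds were those of the adipokine genes, and its lowest was miR-132 replicate 3.

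The comparison of the groups asks whether supplying miR-132 to a diabetic wound moves these genes. All 9 averaged higher with miR-132, a sign that 44.8% of the genes tested had. The signs are not independent, since the genes varied together from wound to wound. Their median difference was 0.39, against -0.02 over all genes tested. At limma's adjusted p under 0.05, 0 of the 9 genes were called, where 0% of the 17364 genes tested were. Without miR-132 replicate 3, 55 genes (0.317%) were called, and 0 of the 9. Among the other genes named here, those called in that setting were Tmem45b (-1.42, limma's adjusted p of 0.0447), Dsg3 (-1.39, 0.0406) and Dsp (-0.69, 0.0460). At an unadjusted p under 0.05, 0 of the 9 were called, against 1412 of all genes (8.13%). The groups overlapped for each of the 9, whereas 0.944% of the genes tested had groups apart. Without miR-132 replicate 1 the median of the 9 was 0.10 with 6 of 9 higher, and 40.5% of the genes tested were higher. Without both that array and control replicate 5, a setting chosen after the data were seen, it was 0.30 with 9 of 9 higher, against 39.9% of the genes tested. With the hybridisation spike-in signal as a covariate, which stood higher on miR-132 replicates 3 to 5 (10.89 to 10.98) than on any control (10.43 to 10.61), the median was 1.14, Lep differed by 3.28 and Retn by 3.87, still with 0 of 9 called.

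**Figure D2:**
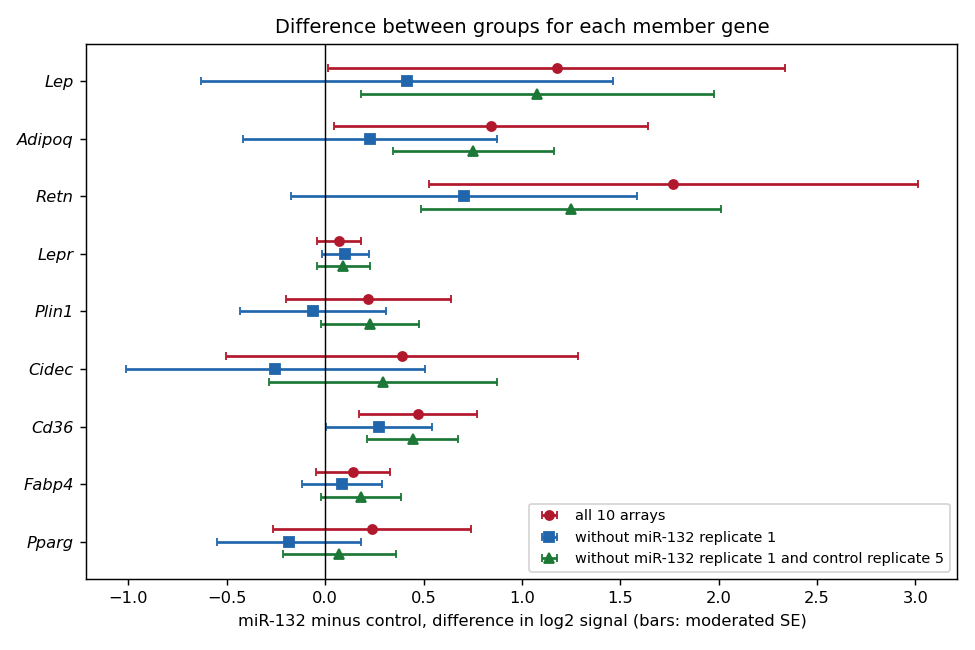
Difference in log2 signal, miR-132 minus control (horizontal axis), for the 9 genes (rows) with the moderated SE, over all 10 arrays (red circles), without miR-132 replicate 1 (blue squares) and without miR-132 replicate 1 and control replicate 5 (green triangles). Plin1, Cidec and Pparg lie below 0 without miR-132 replicate 1, and Retn lies at 0.70 there.

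Across single wounds, 8 of the 9 genes varied together, and no pair with Lepr passed the test. All 36 pairs were compared over the 10 wounds with 100000 permutations of the wounds, two-sided, and p-values were adjusted over the 36. Of the 28 pairs without Lepr, 26 passed an adjusted p of 0.05 by Pearson's r and 28 by Spearman's rho, with r between 0.60 and 0.98 and a median of 0.89. Of the 8 pairs with Lepr, 0 passed by either measure (r between -0.06 and 0.55). Without the 2 wounds farthest from the other gene's median, r with Lepr ranged from -0.05 for Cd36 to 0.72 for Lep. It was 0.69 for Cidec and 0.61 for Adipoq, so the low r of these pairs depends on those wounds. Lepr also lay near the level filter and spanned only 0.51. Taken as deviations from the group means, the 28 values of r lay between 0.58 and 0.99. Of the other 8 measured genes, 6 had an r over 0.8 with Adipoq, against 1.35% of the genes tested. With 5 wounds a group, r was not computed for each group alone.

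Adipoq and Lep had an r of 0.96 (permutation p of 1e-05, the smallest these permutations can give, adjusted 7.2e-05) and a rho of 0.89 (p of 0.0011, adjusted 0.0033). Adipoq and Retn had an r of 0.96 (permutation p of 1e-05, adjusted 7.2e-05) and a rho of 0.96 (p of 3e-05, adjusted 0.00048). These relations remained without the 2 wounds farthest from the Adipoq median, miR-132 replicate 1 and control replicate 5, at r of 0.95 for both. Plin1 and Cidec were the closest pair, with an r of 0.98 (permutation p of 1e-05, adjusted 7.2e-05), a rho of 0.92 (p of 0.0004, adjusted 0.00172) and an r of 0.93 without the same 2 wounds. Lep and Cidec followed at an r of 0.97 (permutation p of 1e-05, adjusted 7.2e-05) and a rho of 0.98 (p of 1e-05, adjusted 0.00036), with 0.96 without those 2 wounds.

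Pparg, Cd36 and Fabp4 were also set against Adipoq. Adipoq and Pparg had an r of 0.95 (permutation p of 0.00016, adjusted 0.000443) and a rho of 0.87 (p of 0.00183, adjusted 0.00423), with an r of 0.74 without the 2 farthest wounds. Adipoq and Cd36 had an r of 0.89 (permutation p of 6e-05, adjusted 0.000229) and a rho of 0.95 (p of 4e-05, adjusted 0.00048), with 0.76 without those wounds. Adipoq and Fabp4 had an r of 0.74 (permutation p of 0.0165, adjusted 0.0247) and a rho of 0.95 (p of 0.0001, adjusted 0.00072), with 0.76 without them. The 2 pairs that missed the threshold by r were Cd36 with Fabp4 (0.63, adjusted permutation p of 0.0638) and Fabp4 with Pparg (0.60, adjusted 0.0815). Without miR-132 replicate 1 and control replicate 5 together, 11 of the 36 pairs passed with 8 wounds left. Without miR-132 replicates 2 and 5, which also leaves 8 wounds, 26 passed.

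**Figure D3:**
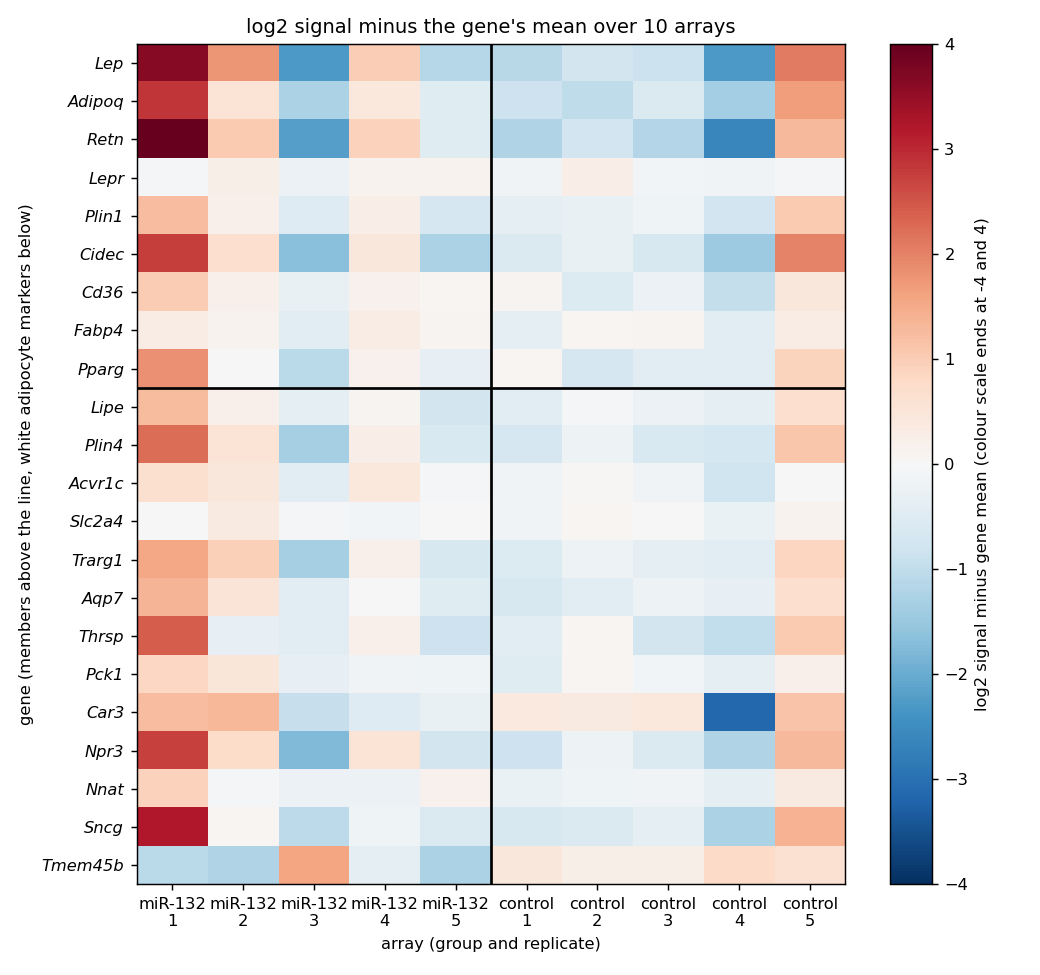
Log2 signal minus the gene's mean over all wounds (colour, from blue for low to red for high) for the 9 genes (upper rows) and 13 further white adipocyte markers (lower rows) on the 5 miR-132 arrays (left) and the 5 control arrays (right). Columns miR-132 replicate 1 and control replicate 5 are red for most adipocyte genes, miR-132 replicate 3 and control replicate 4 are blue, and Lepr stays near white.

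Most other white adipocyte genes tested followed Adipoq. Of 13 tested markers, 9 had an r over 0.8 with Adipoq across the 10 wounds, with a median r of 0.90. Their mean level was 8.59, 7.57, 6.71, 7.28 and 6.77 on miR-132 replicates 1 to 5, against 6.92, 7.18, 7.03, 6.52 and 7.98 on control replicates 1 to 5. This mean correlated with Adipoq at an r of 0.96 (permutation p of 9e-05, adjusted 0.00144 over 16 lists) and a rho of 0.89 (p of 0.00103, adjusted 0.0165), and at 0.82 without the 2 farthest wounds. The list averaged higher for 12 of 13 markers with a median difference of 0.33, and 0 passed limma's adjusted threshold. The median was -0.0035 without miR-132 replicate 1, with 6 markers higher and 7 lower. With control replicate 5 left out as well, a setting chosen after the data were seen, it was 0.20 with 12 of 13 higher. By the smallest p, the genes were the receptor gene Acvr1c (0.41 ± 0.23, SE, limma's adjusted p of 0.653), Tmem45b (-0.92 ± 0.50, adjusted p of 0.653), the gluconeogenic enzyme gene Pck1 (0.28 ± 0.23, adjusted p of 0.770) and Nnat (0.23 ± 0.23, adjusted p of 0.802). Tmem45b ran against the list, with an r of -0.52 to Adipoq. Ucp1, the uncoupling protein of brown fat, was below the level filter in every wound at 3.06 to 3.66.

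The genes outside the set that were most like Adipoq over the 10 wounds were Car5b, a mitochondrial carbonic anhydrase gene, with an r of 0.98, the growth hormone receptor gene Ghr (0.98) and Abcd2, a peroxisomal fatty acid transporter gene (0.98). They were followed by Fads3, of the fatty acid desaturase family (0.97), the caveolar coat gene Cavin2 (0.97) and the synuclein gene Sncg (0.97). Nearest to Lep were the lipase gene Lipf (0.98), Npr3, a clearance receptor for natriuretic peptides (0.98), the choline transporter gene Slc5a7 (0.98) and Cdo1, a cysteine dioxygenase gene (0.98). Nearest to Lepr were Cldn22 (0.94), Gspt2 (0.91), Ephb1 (0.89) and Bach2 (0.88), which spanned 0.30 to 0.69 over all wounds. These values are the highest among 17364 genes on 10 arrays and are given as a description.

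Lipid droplet and lipolysis genes outside the set differed in how closely they followed Adipoq. Of 14 tested, 6 had an r over 0.8 with it. Among them, picked for their r, were Plin4 (0.97), the hormone-sensitive lipase gene Lipe (0.92) and the triglyceride lipase gene Pnpla2 (0.92). Plin4, Lipe, Npr3 and Aqp7 are also in the list of white adipocyte markers. So are Pck1 and Thrsp of fat synthesis, and Slc2a4 and Trarg1 of insulin-driven uptake. Correlations of these lists with Adipoq are therefore not independent. By the smallest p, Plin2, a droplet coat gene that many cell types express, averaged -0.57 ± 0.21 (SE, limma's adjusted p of 0.593) and had an r of -0.26 to Adipoq. Abhd5, an activator of the triglyceride lipase, averaged -0.54 ± 0.25 (adjusted p of 0.618), Hilpda, an inhibitor of it, -0.32 ± 0.24 (adjusted p of 0.742) and the seipin gene Bscl2 -0.17 ± 0.13 (adjusted p of 0.749). In this list 8 averaged higher and 6 lower, with a median of 0.04 and 0 called. Without miR-132 replicate 1, 2 averaged higher and 12 lower, with a median of -0.081. With control replicate 5 left out as well, 6 of 14 averaged higher, with a median of -0.015. The list mean correlated with Adipoq at an r of 0.93 (permutation p of 0.00031, adjusted 0.00248 over 16 lists) and a rho of 0.79 (p of 0.0087, adjusted 0.0696), with an r of 0.70 without the 2 farthest wounds.

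Of 9 tested genes of fatty acid uptake, 3 averaged higher and 6 lower with miR-132, with a median of -0.11 and 0 called. Lpl, which encodes the lipase that frees fatty acids from lipoproteins, had an r of 0.91 to Adipoq and a difference of 0.43 ± 0.67 (SE, limma's adjusted p of 0.887). The fatty acid transporter gene Slc27a4 averaged -0.60 ± 0.20 (adjusted p of 0.593), the carrier gene Fabp5, abundant in keratinocytes, -0.36 ± 0.24 (adjusted p of 0.700) and the lipoprotein receptor gene Scarb1 -0.12 ± 0.11 (adjusted p of 0.786). The correlations of these 3 with Adipoq were -0.26, -0.36 and -0.12. The list mean had an r of 0.75 with it (permutation p of 0.0115, adjusted 0.037) and a rho of 0.60 (p of 0.0728, adjusted 0.194), but an r of 0.42 without the 2 farthest wounds.

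Of 18 tested genes of fat synthesis, 7 averaged higher and 11 lower, with a median of -0.06 and 0 called. Without miR-132 replicate 1, 1 averaged higher and 17 lower, with a median of -0.25. With control replicate 5 left out as well, 6 of 18 averaged higher, with a median of -0.135. Acly, which makes cytosolic acetyl-CoA, averaged -0.35 ± 0.19 (SE, limma's adjusted p of 0.653), and the acyltransferase genes Dgat1 and Agpat2 -0.25 ± 0.17 and -0.28 ± 0.25 (adjusted p of 0.715 and 0.788). The list mean correlated with Adipoq at an r of 0.83 (permutation p of 0.00235, adjusted 0.0125 over 16 lists) and a rho of 0.64 (p of 0.0543, adjusted 0.175). Without the 2 farthest wounds r was 0.43, so this relation rests on them. The highest wound was miR-132 replicate 1 for 11 of the 18 genes, against 16.1% of all genes tested.

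Transcription factors of adipogenesis had, as a list, no correlation with Adipoq that passed. Their mean level lay between 6.19 and 6.45 (miR-132) and between 6.33 and 6.59 (control), and its r to Adipoq was 0.14 (permutation p of 0.697, adjusted 0.858) with a rho of -0.18 (p of 0.633, adjusted 0.724). Of 14 tested, 6 averaged higher and 8 lower, with a median of -0.04 and 0 called. Klf5, which is also a keratinocyte factor, averaged -0.93 ± 0.39 (SE, limma's adjusted p of 0.594), Cebpb -0.36 ± 0.14 (adjusted p of 0.593), the retinoid receptor gene Rxra -0.23 ± 0.11 (adjusted p of 0.631) and Klf15 0.19 ± 0.09 (adjusted p of 0.620). Klf15 and Cebpd had the highest r to Adipoq in this list, both at 0.79, and were singled out after their values were seen.

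Of 14 other tested adipokine genes, 9 averaged higher and 5 lower, with a median of 0.04 and 0 called. Without miR-132 replicate 1 these were 7 and 7 with a median of 0.0063. With control replicate 5 left out as well, 7 of 14 averaged higher, with a median of -0.0025. Nrg4, a neuregulin secreted by fat, averaged 0.22 ± 0.11 (SE, limma's adjusted p of 0.636) with an r of 0.87 to Adipoq, and Rbp4, a retinol carrier, 0.37 ± 0.23 (adjusted p of 0.682) with an r of 0.78. Vegfa, an angiogenic factor, averaged -0.66 ± 0.36 (adjusted p of 0.653) and Metrnl -0.15 ± 0.10 (adjusted p of 0.711). Of 9 tested genes for adipokine receptors and insulin-driven uptake, 5 averaged higher and 4 lower, with a median of 0.06 and 0 called. Without miR-132 replicate 1 these were 4 and 5 with a median of -0.037. With control replicate 5 left out as well, 5 of 9 averaged higher, with a median of 0.0175. The receptor list mean had an r of 0.81 with Adipoq (permutation p of 0.00331, adjusted 0.0132) and a rho of 0.72 (p of 0.0228, adjusted 0.121), with an r of 0.56 without the 2 farthest wounds. The adiponectin receptor gene Adipor1 averaged -0.24 ± 0.11 (adjusted p of 0.614), the retinol carrier receptor gene Stra6 0.09 ± 0.08 (adjusted p of 0.788), Cdh13, which binds adiponectin, -0.24 ± 0.22 (adjusted p of 0.791) and the insulin receptor substrate gene Irs1 0.18 ± 0.26 (adjusted p of 0.874).

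Genes of leptin receptor signalling, taken with its regulators and Lepr itself, did not follow Lep across these wounds in any relation that passed adjustment. Of 11 relations with Lep, 0 passed, and the lowest adjusted permutation p was 0.729 by r and 0.661 by rho. Without the 2 wounds farthest from the Lep median, r was -0.94 for Leprotl1, -0.82 for Ptpn1 and 0.72 for Lepr, against -0.35, -0.47 and 0.26 over all 10 wounds. Of 10 tested signalling genes, 9 averaged lower with miR-132 and 1 higher, with a median of -0.18 and 0 called, and without miR-132 replicate 1 all 10 averaged lower with a median of -0.26. Stat3, the transcription factor of the pathway, averaged 9.02 ± 0.46 with miR-132 and 9.67 ± 0.27 in control (SD, n = 5 each), a difference of -0.66 ± 0.23 (SE, limma's adjusted p of 0.593). Socs3, its feedback inhibitor, averaged -0.41 ± 0.17 (adjusted p of 0.593), Ptpn1, a phosphatase that dampens the receptor, -0.36 ± 0.19 (adjusted p of 0.650), and Leprotl1, a relative of Leprot, -0.23 ± 0.14 (adjusted p of 0.682). Stat3 and Socs3 also serve interleukin-6 type cytokines.

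**Figure D4:**
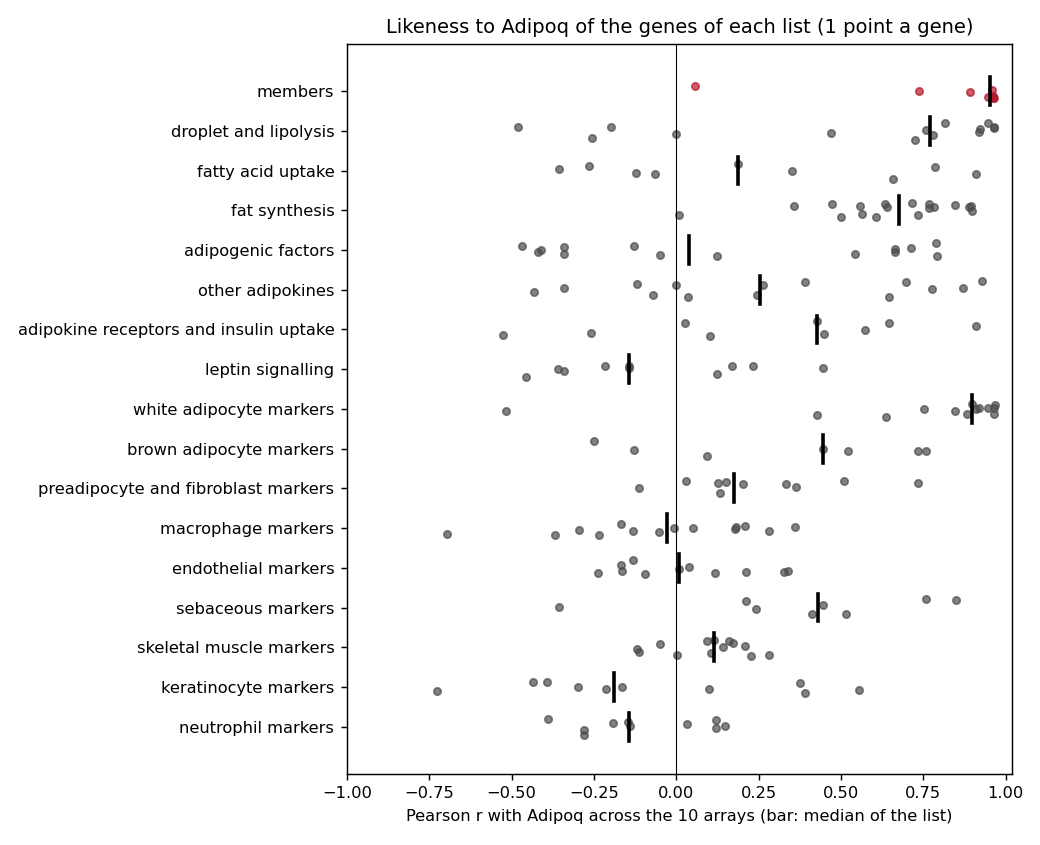
Pearson r with Adipoq across the 10 arrays (horizontal axis) for each tested gene of each list (rows, 1 point a gene, members in red), with the median of the list as a bar. The members have a median of 0.95 and white adipocyte markers of 0.90. Brown adipocyte markers have a median of 0.45, sebaceous markers of 0.43 and preadipocyte and fibroblast markers of 0.18. Macrophage, endothelial, muscle, keratinocyte and neutrophil markers have medians between -0.19 and 0.11.

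Among other cells of wound-edge skin, the list means of macrophage, endothelial, skeletal muscle, keratinocyte, neutrophil, sebaceous and fibroblast markers had an r between -0.17 and 0.49 with it, and 0 of these 7 passed (adjusted permutation p of 0.278 or more over the 16 lists). Brown adipocyte markers had an r of 0.71 (permutation p of 0.0181, adjusted 0.0484) and a rho of 0.64 (p of 0.0547, adjusted 0.175), with an r of 0.45 without the 2 farthest wounds. The macrophage mean lay between 10.77 and 11.85 in the miR-132 wounds, against 10.93 to 11.77 in the controls, over 14 markers. The endothelial mean lay between 6.08 and 6.98 in the miR-132 wounds, against 6.39 to 6.93 in the controls, over 11 markers. The muscle mean lay between 9.44 and 13.23 in the miR-132 wounds, against 9.86 to 12.92 in the controls, over 13 markers. The part of these cells in the values of Cd36, Fabp4 and Pparg was not tested.

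None of these marker lists held a gene past limma's adjusted threshold, and the genes with the smallest p were as follows. Over all genes tested, 44.8% averaged higher with miR-132. Whether the genes of a list vary independently was not tested, so a count of signs is a description only. Of 11 keratinocyte markers 7 never reached the upper limit of the scale, 19.93, and all 7 averaged lower. Dsg3 stood at -1.10 ± 0.32, Dsp at -0.53 ± 0.17 and Trp63 at -0.68 ± 0.26 (SE). Krt15, at -0.02 ± 1.06, and Lor, at -0.18 ± 0.87 (SE), differed less. Dsp lay near the limit, at 19.23 to 19.26 in the controls, and what this does to its SE was not tested. Krt10 was at that limit on 8 arrays, Krt5 on 8, Krt14 on 9 and Krt1 on 10, so no direction is given for them. Of 10 neutrophil markers 8 never reached the limit, and all 8 averaged lower. Csf3r stood at -0.92 ± 0.50, Clec4e at -1.03 ± 0.57, Hdc at -0.87 ± 0.58 and Cxcr2 at -0.56 ± 0.39 (SE). S100a8 and S100a9 were at the limit on 9 arrays each. All 13 muscle markers averaged lower, with Actn3 at -0.71, Myh4 at -0.86, Myh2 at -0.97 and Neb at -0.88. Sebaceous markers averaged lower for 6 of 8. Krt79 stood at -0.89 ± 0.54, Fabp5 at -0.36 ± 0.24, Elovl3 at -0.67 ± 0.64 and Far2 at -0.68 ± 0.72 (SE). Macrophage markers split evenly, 7 and 7. Cd14 stood at -0.85 ± 0.64, Itgam at -0.59 ± 0.49, C1qa at 0.34 ± 0.29 and C1qc at 0.30 ± 0.32 (SE). Endothelial markers stood, with SE, at -0.15 ± 0.08 (Vwf), -0.27 ± 0.25 (Pecam1), -0.25 ± 0.24 (Eng) and 0.25 ± 0.27 (Emcn). Fibroblast and preadipocyte markers stood, with SE, at 0.19 ± 0.16 (Ccn5), -0.20 ± 0.21 (Col1a1), 0.05 ± 0.06 (Dcn) and -0.30 ± 0.35 (Lum). Brown fat markers stood, with SE, at 0.39 ± 0.21 (Cox7a1), -0.67 ± 0.64 (Elovl3), 0.15 ± 0.28 (Cox8b) and -0.06 ± 0.16 (Zic1).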

How the data were processed

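RNA from wound-edge skin of 10 db/db mice, 5 given miR-132 mimic and 5 given control mimic, was read on Affymetrix mouse Clariom D arrays. RMA in Affymetrix Expression Console 1.4 is named in the submitters' processing notes; it adjusts for background, puts arrays on a common distribution and merges the probes of a feature. The values deposited by the authors are taken as log2 signal, a scale read from their range and shared upper limit of 19.93, since the labels do not state it. Of 72688 features, 30604 carried 1 gene in the platform annotation, 2146 several and 39938 none, and 827 symbols were updated through RefSeq gene names of GRCm38.p6. A gene entered the test when its mean signal exceeded 4.17, the median of the means of all features.

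The test used R 4.3.3 and limma 3.58.1, with lmFit and trended eBayes, for miR-132 minus control, two-sided, adjusted by Benjamini-Hochberg over 17364 genes at 0.05. It was tested on simulated data with independent noise for each gene. Those data lack the shared variation of the adipocyte genes, which that run therefore does not cover. Correlations used 100000 permutations, and 36 pairs were made in place of 45 planned because Cfd had no feature. The members and lists were chosen with earlier results of these data known. Named from each list were the up to 4 measured genes with the smallest p, besides Leprot and the genes most like Adipoq (6), Lep (4) and Lepr (4), without predicted genes. Alternatives were other scalings, filters, weights, covariates and left-out arrays. The number of arrays limits precision.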

Additional observations from a re-analysis of the deposited data

Results flagged for a closer look

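Of 170 groups of 5 arrays examined, 14 held an array far from the other 4, of which 3 are among the 18 groups of the adipocyte genes. Chance flags about 1 in 20 groups. Adipoq was at 8.22 on control replicate 5, against 5.20 to 5.98 on the other controls. Lepr was at 4.68 on control replicate 2, against 4.26 to 4.33 on the others. Fabp4 was at 15.23 on miR-132 replicate 3, against 15.80 to 15.99 on the others.

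In genes with an r over 0.8 to Adipoq, Sncg was at 11.75 on miR-132 replicate 1, and Abcd2 at 9.10 and Nnat at 5.08 on control replicate 5. Agpat2, with an r of 0.63 to Adipoq, was at 8.24 on control replicate 5. On control replicate 4, Acvr1c was at 4.53, against 5.18 to 5.39 on the other controls. Itgam was at 11.95 there (others 9.74 to 10.37) and Krt10 at 18.43 (others 19.58 to 19.93). Col1a1 was at 17.09 (others 17.48 to 17.49) and Fabp5 at 13.54, against 13.47 on each of the others. The flag sets the gap to the nearest array against the range of the 5. Nearly tied values can therefore be flagged on a small gap, as for Fabp5. Leprot was at 9.19 on control replicate 1, against 8.35 to 8.55 on the other controls. Dcn was at 18.16 on miR-132 replicate 4, against 17.86 to 17.88 on the other miR-132 wounds.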

How the results depend on the processing

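The smallest difference that 5 arrays a group could resolve for the adipocyte genes was not computed. For Lep the moderated SE was 1.16, beside a difference of 1.18. Under every alternative run, 0 of the 9 genes passed. Over all genes the count past the threshold was 0 to 55 with single arrays left out (55 without miR-132 replicate 3) and 0 otherwise. The median difference of the 9 genes was 0.10 to 0.64 with single arrays left out. The pairs that passed numbered 22 to 28 with single arrays left out, and 11 without miR-132 replicate 1 and control replicate 5, an alternative chosen after the data were seen. Replicate numbers are shared by the groups, whose wounds came from different mice. Same-numbered arrays correlated at -0.03 to 0.16 in their deviations, which cannot show that a number stands for no shared handling. With the number as a block, 0 genes passed, 0 of the 9 among them, and their median difference was 0.39. Averaging every feature of a gene gave no value, since each of the 9 has 1 feature.

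With single arrays left out, differences that crossed 0 ranged from -0.062 to 0.51 for Plin1, -0.25 to 0.94 for Cidec, -0.18 to 0.54 for Pparg, -0.0105 to 0.59 for Ghr, -0.0285 to 0.56 for Cavin2, -0.14 to 1.01 for Sncg, -0.0035 to 1.12 for Npr3, -0.037 to 0.32 for Irs1, -0.005 to 0.26 for Cox8b, -0.11 to 0.16 for Leprot, -0.0285 to 0.068 for Bach2, -0.15 to 0.0605 for Zic1 and -0.0075 to 0.0675 for Dcn. With quantile scaling, Gspt2 was at -0.0182, Bach2 at -0.035 and Zic1 at 0.003. With median centring, Gspt2 was at -0.034, Bach2 at -0.052, Dcn at -0.014 and Leprot at -0.05. With the spike-in covariate, Cdh13 was at 0.0055, Elovl3 at 0.52, Krt79 at 0.27, Far2 at 0.81, Myh2 at 0.019 and Neb at 0.17. Without miR-132 replicates 2 and 5, Lepr was at -0.025, Gspt2 at -0.025 and Bach2 at -0.083. Without miR-132 replicate 1 and control replicate 5, Irs1 was at -0.073, Cox8b at -0.035 and Leprot at -0.10. The cause was not tested.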
